A study of Mus musculus with 7 samples.

Results

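This account covers 72 genes of pre-mRNA splicing factors and neuronal RNA-binding proteins, out of 12393 genes that the arrays measured through at least 1 probe set annotated to a single gene. They were chosen by name, as the genes whose array symbol began with Srsf, Hnrnp, Sf3a, Sf3b, Snrp, U2af, Prpf, Ptbp, Celf, Elavl, Mbnl, Rbfox or Nova, with Snrpn left out. Each gene was represented by its brightest probe set over all 7 arrays, and the 72 genes had 182 probe sets in all. All 72 were tested, with no filter on low values. The RNA came from MN9D cells, a mouse line with a dopaminergic phenotype that was derived from embryonic midbrain neurons fused to neuroblastoma cells. The 4 globin-labelled arrays were made from MN9D cells labelled as overexpressing the alpha and beta chains of mouse hemoglobin, and the 3 empty vector arrays from MN9D cells carrying the vector alone. The series asks what globin expression does to these cells. The sources used here name neither the promoter that drove the globin chains nor the number of cell clones in a group. The labels do not say that replicates came from separate cultures. The p-values then cover no more than the spread between these arrays, and that spread may be technical.

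Splicing removes introns from pre-mRNA on the spliceosome, which is assembled anew on each intron from small nuclear ribonucleoproteins (snRNPs). SR proteins mostly bind exons and promote the use of nearby splice sites, while many hnRNP proteins oppose them. Neurons add a layer of RNA-binding proteins of the Ptbp, Celf, Elavl, Mbnl, Rbfox and Nova families, which steer neuronal exons and, for the Elavl proteins, the stability of messages with AU-rich elements. These are called the neuronal families here, but not all members are restricted to neurons. Ptbp1, Celf1, Elavl1 and Mbnl1 are widely expressed. A 3′ expression array reads how much transcript there is, not how it was spliced.

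Expression values were deposited as log2 RMA values, with array medians of 8.90 to 8.94. Arrays correlated at 0.9985 to 0.9990 within a group and at 0.9903 to 0.9917 across the groups over all probe sets. Empty vector array 1 and globin-labelled array 4 stood apart from the other 5 arrays on the second principal component, which held 5.96% of the variance. Of 5 adult alpha-globin probe sets, 3 rose by 35.8-fold to 142-fold, whereas the probe set shared by the adult beta-globin genes differed by 0.12 ± 0.06 and did not pass (limma adjusted p = 0.149). A dim probe set of Hbb-b2 rose by 0.34 ± 0.07 and the other was not called. The arrays are therefore called globin-labelled throughout, also wherever a direction is given. Among dopaminergic markers, Th, which makes the precursor of dopamine, was at 11.08 ± 0.06 (SD, n = 4) in globin-labelled arrays and 11.78 ± 0.09 (SD, n = 3) in empty vector arrays. Differences are on the log2 scale, taken as globin-labelled minus empty vector. Their ± is the standard error from limma, and an SD is named as such. Genes with an adjusted p under 0.05 are named as called, and 95% confidence intervals come from the same fit. Changes in RNA per cell and in the make-up of the cultures cannot be told apart in such bulk samples.

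Splicing factors moved both ways, and most of the movement was small. Of the 72 genes 34 were called, or 47.2%, where 40.7% of all 12393 genes were. The calls divided into 18 higher and 16 lower genes, beside 20.6% higher and 20.1% lower over all genes. The median difference of the 72 genes was 0.01 and that of all genes 0.02. The median size of the difference, regardless of sign, was 0.12 for the 72 genes and 0.12 for all genes. The groups did not overlap for 40 of the 72 genes, and they did not for 45.7% of all genes. Of the called genes 7 differed by 1.5-fold or more, 5 higher and 2 lower, as did 5.28% of all genes. Of these 7, 6 belonged to the neuronal families: Rbfox3, Ptbp2, Elavl2 and Celf4 rose, and Mbnl3 and Celf2 fell. The other was Snrpa1, a protein of the U2 snRNP. With the 2 arrays that stood apart left out, an alternative added once the values had been seen, 29 of the 72 genes were called, 16 higher and 13 lower.

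**Figure D1:**
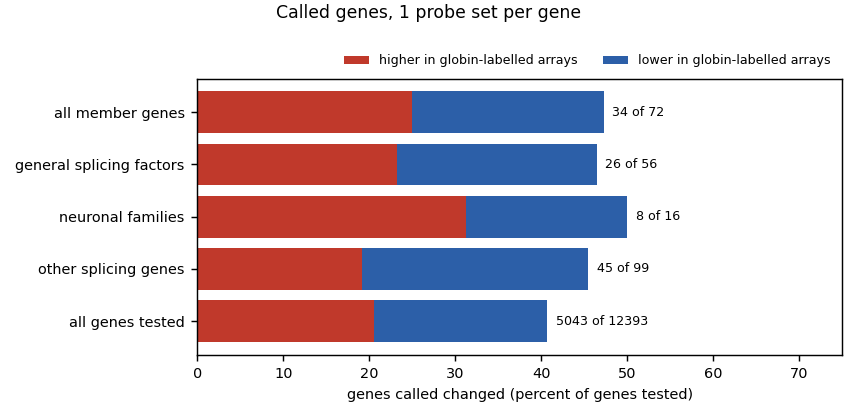
Percent of genes that passed an adjusted p of 0.05, each gene by its brightest probe set, in red for higher and blue for lower in globin-labelled arrays. The 34 of 72 member genes stand near the 5043 of 12393 genes over the whole array, and each list has calls in both directions.

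**Figure D2:**
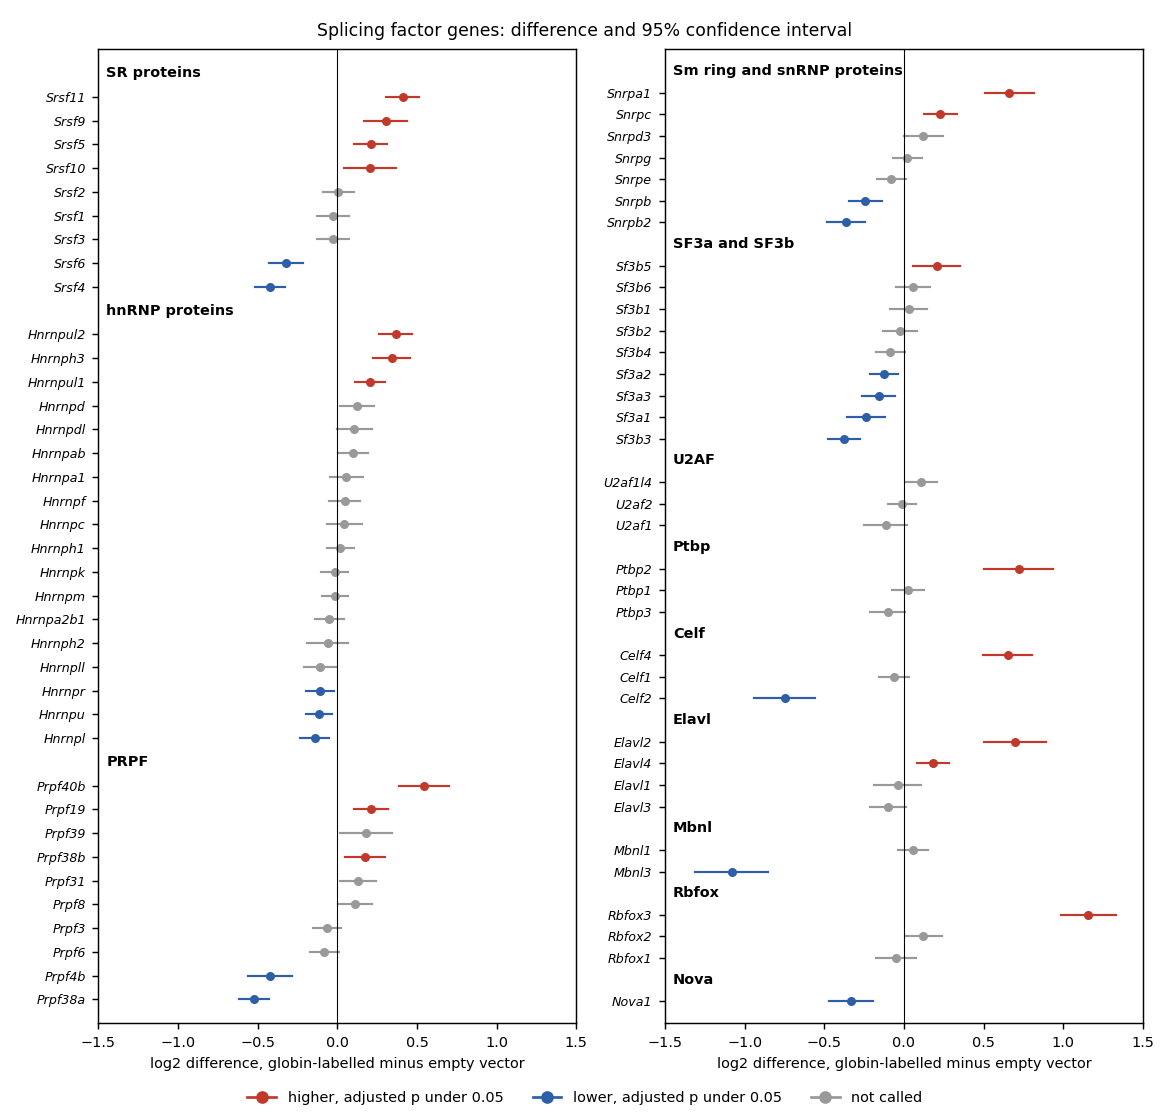
Log2 difference, globin-labelled minus empty vector, of all 72 genes by family, with points for the estimate and bars for the 95% confidence interval of the limma fit. Red and blue mark called genes, grey the others. On the brightest probe sets, which are those shown, the widest departures from 0 are those of Rbfox3 at 1.16 and Mbnl3 at -1.08.

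By brightest probe set the neuronal families held the largest differences, and within each family with over 1 member some genes were called and others were not. Of 16 genes, 5 rose, 3 fell and 8 were not called, so that 50% were called where 40.7% of all genes were. Rbfox3 encodes NeuN, the nuclear antigen used to mark mature neurons, and belongs to a family that binds intronic elements beside alternative exons. It was at 7.89, 7.93, 8.05 and 7.89 in the 4 globin-labelled arrays, against 6.62, 6.78 and 6.95 in the 3 empty vector arrays. The groups stood well apart, with a rise of 1.16 ± 0.08 or 2.23-fold (limma adjusted p = 5.05e-06). The empty vector mean of 6.78 lay below 6.84, the 25th percentile of all probe sets, so this rise began in dim signal. The other members of the family, Rbfox1 and Rbfox2, were not called, with -0.05 ± 0.05 and 0.12 ± 0.05. Without empty vector array 2, Rbfox2 was called at 0.17 (limma adjusted p = 0.0339).

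Of the 3 polypyrimidine tract-binding protein genes, Ptbp2 was called on its brightest probe set and Ptbp1 and Ptbp3 were not. Ptbp1 holds neuronal exons out of messages in most tissues, and Ptbp2 takes its place in developing neurons. Ptbp2 was at 10.78, 10.74, 10.86 and 10.89 in globin-labelled arrays, against 10.11, 10.32 and 9.86 in empty vector arrays. The groups did not overlap, with an SD of 0.07 in globin-labelled arrays (n = 4) and a wider one of 0.23 in empty vector arrays (n = 3). Ptbp2 rose by 0.72 ± 0.09 or 1.65-fold (limma adjusted p = 2.97e-04), while its dimmer probe set, at 0.28 ± 0.10, was not called. Ptbp1 was at 13.39 ± 0.05 (SD, n = 4) in globin-labelled arrays and 13.37 ± 0.05 (SD, n = 3) in empty vector arrays, and its interval for the difference ran from -0.08 to 0.12. Ptbp3 was not called on its brightest probe set (-0.10 ± 0.05), whereas the remaining probe sets fell by 0.53 ± 0.07 and fell by 0.61 ± 0.06 (limma adjusted p = 2.86e-04 and 8.14e-05).

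The Celf proteins bind GU-rich elements in introns and in the 3′ ends of messages. Celf4, which is largely restricted to neurons, was at 11.59, 11.38, 11.54 and 11.55 in globin-labelled arrays, against 10.73, 10.96 and 10.91 in empty vector arrays. It rose by 0.65 ± 0.07 (limma adjusted p = 8.35e-05), and its other probe sets rose by 0.42 ± 0.07 and 0.76 ± 0.05. Celf2 moved the other way, with 7.74, 7.77, 7.83 and 7.92 in globin-labelled arrays, against 8.74, 8.59 and 8.36 in empty vector arrays. It fell by 0.75 ± 0.09 (limma adjusted p = 1.30e-04). Its dimmer probe sets fell by 1.44 ± 0.10 and fell by 1.03 ± 0.09, and the dimmest, at 5.38 in globin-labelled arrays and 5.30 in empty vector arrays, was not called. Celf1, the broadly expressed member, was not called on its brightest probe set, with -0.06 ± 0.04. Of its 5 probe sets 1 was called, with a fall of 0.26 ± 0.07 (limma adjusted p = 0.0121).

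Among the Elavl genes, whose products bind AU-rich elements and stabilise messages, the neuronal Elavl2 and Elavl4 rose. Elavl2, which encodes HuB, was at 10.75, 10.64, 11.00 and 10.94 in globin-labelled arrays, against 10.21, 10.16 and 10.04 in empty vector arrays. The groups did not overlap, with a rise of 0.70 ± 0.09 or 1.62-fold (limma adjusted p = 2.02e-04). Of the other 4 probe sets of Elavl2, 3 rose as well, by 0.25 to 0.65. Elavl4, which encodes HuD, rose by 0.18 ± 0.04 on its brightest probe set (limma adjusted p = 0.00945), and by 0.45 ± 0.05 and 0.46 ± 0.05 on its others. The neuronal Elavl3 (HuC) and the ubiquitous Elavl1 (HuR) were not called on their brightest probe sets, with -0.10 ± 0.05 and -0.04 ± 0.07. Of the 3 probe sets of Elavl3, 1 was called, with a fall of 0.17 ± 0.05 (limma adjusted p = 0.0348). The sign of Elavl1 turned without empty vector array 3 (0.02).

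Mbnl3 is a muscleblind protein of a family that steers alternative exons during differentiation. By brightest probe set it had the largest fall of the 72 genes. It was at 6.28, 6.10, 5.96 and 5.78 in globin-labelled arrays, against 7.03, 7.16 and 7.13 in empty vector arrays. All 4 globin-labelled arrays lay below the 25th percentile of all probe sets, so the size of the fall, 1.08 on the log2 scale with a standard error of 0.10 (limma adjusted p = 4.06e-05), is that of dim signal. Mbnl1, the widely expressed member, was not called, with 0.06 ± 0.04. Nova1, a neuron-specific splicing factor first known as an autoantigen, was at 9.69, 9.72, 9.84 and 9.88 in globin-labelled arrays, against 10.21, 10.11 and 10.03 in empty vector arrays. It fell by 0.33 ± 0.06 (limma adjusted p = 0.00221), and its dimmer probe set was not called (-0.10 ± 0.05).

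**Figure D3:**
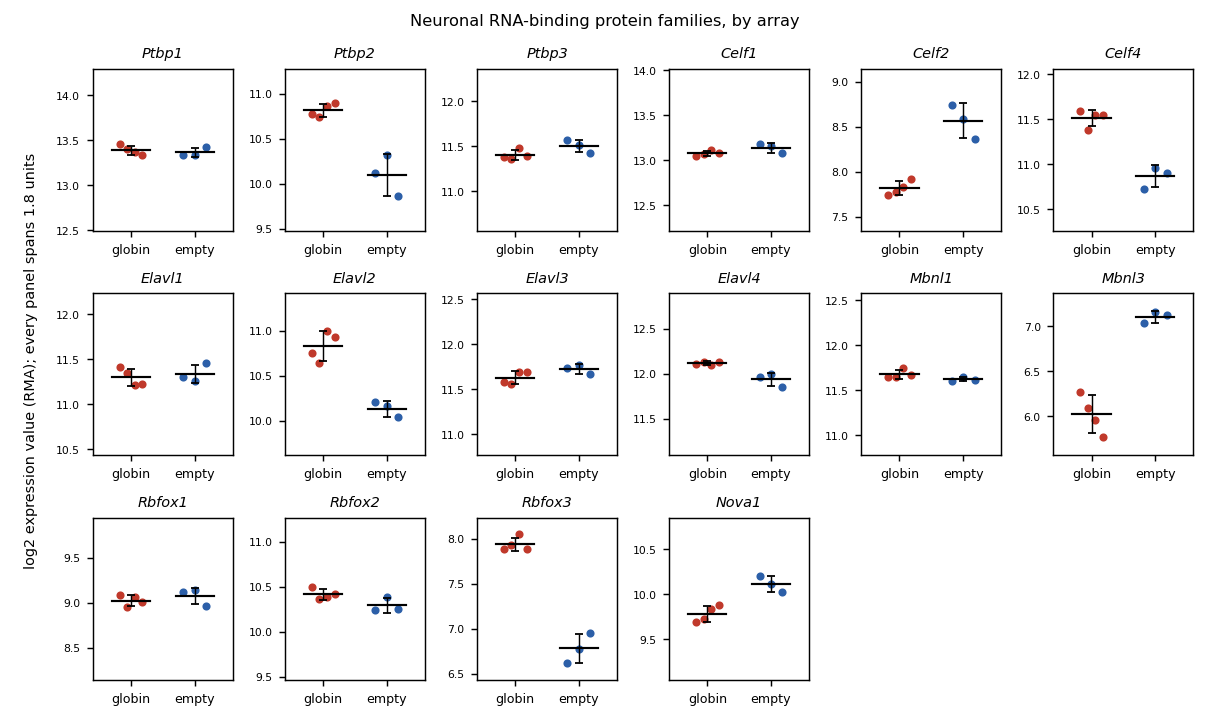
Log2 expression value in each array for the 16 genes of the neuronal families, globin-labelled arrays in red on the left and empty vector arrays in blue on the right of each panel. Black lines are means with SD (n = 4 and n = 3), and every panel spans the same height. Rbfox3, Ptbp2, Elavl2, Elavl4 and Celf4 lie higher and Mbnl3, Celf2 and Nova1 lower in globin-labelled arrays, with no overlap.

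General neuronal markers moved in the same arrays, and their part in these differences was not tested. Of 8 neuronal markers 1 rose and 3 fell, and their summed level ran from 13.80 to 13.94 in globin-labelled arrays and from 13.95 to 14.10 in empty vector arrays. Of 6 dopaminergic markers 0 rose and 2 fell, Th and Ddc, with a summed level of 11.81 to 11.88 in globin-labelled arrays and 12.25 to 12.41 in empty vector arrays. Gap43, a growth cone protein and the brightest of the neuronal markers, differed by -0.09 ± 0.06 and was not called. The neuronal marker that rose was Snap25, of the synaptic release machinery, by 0.40 ± 0.05. Stmn2, a microtubule regulator, was 2.29-fold lower in globin-labelled arrays (limma adjusted p = 1.46e-06), with a mean of 10.18 there and 11.38 in empty vector arrays. Tubb3, a neuronal tubulin, fell by 0.80 ± 0.06 (limma adjusted p = 1.70e-05). Map2, a dendritic microtubule protein, fell by 0.48 ± 0.11 (limma adjusted p = 0.00563), a call lost with both arrays that stood apart left out (limma adjusted p = 0.0565). The fall of Stmn2 exceeded in size every difference among the 72 genes on their brightest probe sets. The 4 were named after their values were seen. Markers of other cell types were mostly dim. For astrocytes, microglia and macrophages, and fibroblasts 0 of 5, 0 of 5 and 0 of 4 were called, and their brightest markers were Gfap (difference -0.04 ± 0.06), Csf1r (0.10 ± 0.08) and Dcn (-0.02 ± 0.06). Of 4 measured oligodendrocyte markers 1 fell, Mbp, and the brightest, Sox10, differed by 0.04 ± 0.05. Their summed level was 9.42 to 9.49 in globin-labelled arrays and 9.68 to 9.71 in empty vector arrays. Of 4 endothelial and 4 measured erythroid markers 1 each rose, Vwf and Slc4a1, while the brightest, Pecam1 (0.02 ± 0.04) and Klf1 (-0.09 ± 0.06), were not called. The summed endothelial level was 8.23 to 8.36 in globin-labelled arrays and 8.09 to 8.12 in empty vector arrays, and the summed levels of the astrocyte, microglia and macrophage, fibroblast and erythroid lists overlapped between the groups.

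Transcripts of U2 snRNP proteins moved in opposite directions. The U2 snRNP recognises the branch point of the intron. Snrpa1 and Snrpb2 encode the A′ and B″ proteins of U2, partners that bind the same stem-loop of U2 RNA. Snrpa1 was at 12.05, 11.95, 11.98 and 11.78 in globin-labelled arrays, against 11.19, 11.28 and 11.37 in empty vector arrays. It rose by 0.66 ± 0.07 or 1.58-fold (limma adjusted p = 6.94e-05), and its other probe sets rose by 0.63 ± 0.07 and 0.64 ± 0.05. Snrpb2 was at 12.11, 11.99, 12.15 and 11.99 in globin-labelled arrays, against 12.39, 12.41 and 12.47 in empty vector arrays. It fell by 0.36 ± 0.05 (limma adjusted p = 5.37e-04), and the same was seen on its other probe sets, which fell by 0.32 ± 0.05 and fell by 0.46 ± 0.07. The groups did not overlap for either gene. Of the 7 Snrp genes 2 rose and 2 fell, or 57.1% called where 40.7% of all genes were. The others called were Snrpc, the U1 protein that helps read the 5′ splice site, with a rise of 0.23 ± 0.05, and Snrpb, a protein of the Sm ring common to most spliceosomal snRNPs, which fell by 0.24 ± 0.05 (limma adjusted p = 0.00357 and 0.00258). The Sm ring genes Snrpd3, Snrpe and Snrpg were not called on their brightest probe sets, with differences from -0.08 to 0.12. A further probe set of Snrpd3 was called lower (-0.18).

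The SF3a trimer, which joins U2 to the branch region, was lower on all 3 subunits. Sf3a1 was at 11.53, 11.42, 11.42 and 11.33 in globin-labelled arrays, against 11.61, 11.68 and 11.69 in empty vector arrays, a fall of 0.24 on the log2 scale with a standard error of 0.05 (limma adjusted p = 0.00577). Sf3a2 fell by 0.12 ± 0.04 and Sf3a3 fell by 0.16 ± 0.05 (limma adjusted p = 0.0303 and 0.0219), and the groups did not overlap for any of the 3. The call of Sf3a2 was lost without empty vector arrays 2 and 3 and globin-labelled arrays 1, 2 and 4 (limma adjusted p = 0.0515 to 0.0884). The call of Sf3a3 was lost without empty vector arrays 2 and 3 and globin-labelled arrays 2 and 4 (limma adjusted p = 0.0514 to 0.0775), so that of the SF3a trimer the call of Sf3a1 alone held in all 7 omissions. The other probe sets of Sf3a1 and Sf3a3 fell by 0.60 ± 0.04 and fell by 0.27 ± 0.06, and that of Sf3a2 was not called (-0.07 ± 0.04). Of the 6 SF3b genes, Sf3b3, a large scaffold subunit, fell by 0.38 ± 0.04 (limma adjusted p = 1.53e-04) and Sf3b5, a small subunit, rose by 0.21 ± 0.07 (limma adjusted p = 0.0319). The call of Sf3b5 was lost without empty vector arrays 1 and 2 and globin-labelled arrays 1, 2 and 3 (limma adjusted p = 0.0521 to 0.107). The other probe set of Sf3b5 differed by 0.03 and was not called. Sf3b3 was at 12.32, 12.25, 12.26 and 12.35 in globin-labelled arrays, against 12.72, 12.68 and 12.62 in empty vector arrays. Sf3b1, Sf3b2, Sf3b4 and Sf3b6 were not called on their brightest probe sets, with differences from -0.08 to 0.06. Of the 4 probe sets of Sf3b2, 1 was called lower. None of the 3 U2AF genes was called: U2af2, which binds the polypyrimidine tract, differed by -0.01 ± 0.04, U2af1, which reads the 3′ splice site, by -0.11 ± 0.06, and the related U2af1l4 by 0.11 ± 0.04. At an unadjusted p under 0.05, 1 of these 3 passed, and leaving out empty vector array 2 brought U2af1l4 past the threshold (0.14, limma adjusted p = 0.0416).

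The promoters of these U2 genes are shown because SF3a subunits fell together and Snrpa1 and Snrpb2 went apart. Each line gives the 250 bases before the annotated start of transcription, 5′ to 3′ on the gene's strand, from RefSeq on GRCm38.p6. Capitals mark the ETS core CCGGAAG and the GC box GGGCGG on either strand, and no match of one overlaps a match of the other. The motifs were chosen after the expression values were known.
Sf3a1: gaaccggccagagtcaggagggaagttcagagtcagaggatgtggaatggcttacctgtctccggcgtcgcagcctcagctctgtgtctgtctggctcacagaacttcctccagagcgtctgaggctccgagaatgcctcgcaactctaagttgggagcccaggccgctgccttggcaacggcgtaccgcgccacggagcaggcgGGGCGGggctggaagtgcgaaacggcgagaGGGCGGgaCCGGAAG
Sf3a2: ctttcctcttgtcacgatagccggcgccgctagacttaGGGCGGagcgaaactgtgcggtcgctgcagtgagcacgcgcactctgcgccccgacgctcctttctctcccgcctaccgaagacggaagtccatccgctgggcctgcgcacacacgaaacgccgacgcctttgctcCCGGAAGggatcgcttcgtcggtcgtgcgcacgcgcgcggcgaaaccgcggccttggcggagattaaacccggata
Sf3a3: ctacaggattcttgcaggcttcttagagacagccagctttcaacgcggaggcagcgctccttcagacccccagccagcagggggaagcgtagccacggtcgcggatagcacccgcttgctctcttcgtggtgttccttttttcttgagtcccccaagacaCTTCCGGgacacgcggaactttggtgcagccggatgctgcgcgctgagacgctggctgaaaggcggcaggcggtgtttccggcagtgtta
Snrpa1: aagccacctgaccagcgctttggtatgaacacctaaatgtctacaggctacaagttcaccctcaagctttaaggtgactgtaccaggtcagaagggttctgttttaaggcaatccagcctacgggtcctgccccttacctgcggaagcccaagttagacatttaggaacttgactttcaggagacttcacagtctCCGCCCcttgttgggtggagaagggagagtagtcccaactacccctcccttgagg
Snrpb2: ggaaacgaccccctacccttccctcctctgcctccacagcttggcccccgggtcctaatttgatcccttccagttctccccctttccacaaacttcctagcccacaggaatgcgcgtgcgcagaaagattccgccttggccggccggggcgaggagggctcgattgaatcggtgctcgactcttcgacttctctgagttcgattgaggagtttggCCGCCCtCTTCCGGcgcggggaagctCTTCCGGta

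These windows are Sf3a1 at chr11:4160104-4160353, Sf3a2 at chr10:80798485-80798734, Sf3a3 at chr4:124714611-124714860, Snrpa1 at chr7:66060086-66060335 and Snrpb2 at chr2:143062819-143063068, all on the plus strand of GRCm38.p6. CCGGAAG was found once in each SF3a window, 2 times in that of Snrpb2 and 0 times in that of Snrpa1. GGGCGG was found 2 times for Sf3a1, once each for Sf3a2, Snrpa1 and Snrpb2, and 0 times for Sf3a3. At least 1 promoter held CCGGAAG in 17 of the 63 member genes with a promoter entry (27.0%), in 12.9% of 9882 genes on the array, and in 6.91% of all 32851 promoter entries. For GGGCGG the shares were 63.5% of member genes, 57.0% of genes on the array and 32.7% of all entries. Further promoter motifs were scanned, and none of them was found in these 5 windows. The most common of them was held by 50.8% of member genes and 39.8% of genes on the array, and another by 11.1% and 10.7%. The NRF1 motif was held by 1.59% and 1.49%, and the CRE motif by 1.59% and 2.53%. The matches are a description of these windows, and 5 genes are too few to set against the direction of change.

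SR proteins moved both ways by brightest probe set, with 4 of 9 genes higher and 2 lower, or 66.7% called where 40.7% of all genes were. Srsf11, an SR-related protein that touches both U1 and U2 factors, was at 12.68, 12.73, 12.63 and 12.67 in globin-labelled arrays, against 12.33, 12.22 and 12.24 in empty vector arrays. It rose by 0.41 ± 0.04 (limma adjusted p = 1.00e-04), and its other probe set rose by 0.29 ± 0.06. Srsf9 rose by 0.30 ± 0.06, Srsf5 by 0.21 ± 0.05 and Srsf10, which represses splicing once dephosphorylated, by 0.21 ± 0.07. Srsf4, one of the larger SR proteins, was at 11.31, 11.25, 11.32 and 11.33 in globin-labelled arrays, against 11.68, 11.75 and 11.75 in empty vector arrays. It fell by 0.42 ± 0.04 (limma adjusted p = 4.54e-05), and the groups did not overlap. Srsf6 fell by 0.32 ± 0.05 on its brightest probe set (limma adjusted p = 5.81e-04). The founding SR genes Srsf1, Srsf2 and Srsf3 were not called on their brightest probe sets, with -0.03 ± 0.04, 0.0048 ± 0.04 and -0.03 ± 0.04. Values of Srsf10 overlapped between the groups, with 11.88 to 12.13 in globin-labelled arrays and 11.71 to 11.94 in empty vector arrays. The call of Srsf10 was lost without empty vector arrays 2 and 3 and globin-labelled arrays 2, 3 and 4 (limma adjusted p = 0.0796 to 0.159).

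By brightest probe set 3 of 18 hnRNP genes rose and 3 fell, or 33.3% called where 40.7% of all genes were. The 12 others differed by -0.11 to 0.12, at an unadjusted p under 0.05 for 3 of them. The rises were those of Hnrnpul2 and Hnrnpul1, relatives of hnRNP U that act in the DNA damage response, by 0.37 ± 0.05 and 0.21 ± 0.04, and of Hnrnph3, which binds G-rich RNA, by 0.34 ± 0.05. Hnrnpul2 was at 11.46, 11.50, 11.51 and 11.59 in globin-labelled arrays, against 11.21, 11.11 and 11.14 in empty vector arrays (limma adjusted p = 2.24e-04). Hnrnph3 was at 11.28, 11.19, 11.19 and 11.22 in globin-labelled arrays, against 10.87, 10.98 and 10.79 in empty vector arrays (limma adjusted p = 6.90e-04). Neither gene's groups overlapped. Hnrnpl, which binds CA repeats, fell by 0.14 ± 0.04, Hnrnpu, a nuclear scaffold protein, fell by 0.12 ± 0.04, and Hnrnpr fell by 0.11 ± 0.04 (limma adjusted p = 0.0187, 0.0323 and 0.0469). Together with that of Sf3a2 these were the smallest falls among the 34 calls. The call of Hnrnpr was lost without each of the 7 arrays in turn (limma adjusted p = 0.0523 to 0.115). The call of Hnrnpu was lost without empty vector arrays 1 and 3 and globin-labelled arrays 1, 2 and 3 (limma adjusted p = 0.0590 to 0.0873), and for Hnrnpl the array was empty vector array 3 alone (limma adjusted p = 0.0627).

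The Prpf genes are named after yeast pre-mRNA processing mutants. By brightest probe set they included the largest changes among the 72 genes outside the snRNP and neuronal genes. Of 10 genes 3 rose and 2 fell, or 50% called where 40.7% of all genes were. Prpf40b, a homologue of a yeast U1 snRNP protein, was at 10.14, 10.19, 10.07 and 10.16 in globin-labelled arrays, against 9.60, 9.75 and 9.44 in empty vector arrays, a rise of 0.54 ± 0.07 (limma adjusted p = 2.52e-04). Prpf38a, which enters the spliceosome just before activation, was at 10.47, 10.46, 10.49 and 10.41 in globin-labelled arrays, against 10.97, 10.94 and 11.04 in empty vector arrays. It fell by 0.52 ± 0.04 (limma adjusted p = 1.58e-05), whereas the related Prpf38b rose by 0.17 ± 0.06 (limma adjusted p = 0.0355). The call of Prpf38b was lost without empty vector arrays 1 and 3 and globin-labelled arrays 1, 3 and 4 (limma adjusted p = 0.0506 to 0.126). Prpf19, the ubiquitin ligase of the complex that stabilises the active spliceosome, rose by 0.21 ± 0.05 and by 0.19 ± 0.04 and 0.22 ± 0.05 on its other probe sets. Prpf4b, a kinase that phosphorylates tri-snRNP proteins, fell by 0.42 ± 0.06 on its brightest probe set (limma adjusted p = 5.67e-04). Prpf3, Prpf6, Prpf8, Prpf31 and Prpf39 were not called on their brightest probe sets, with differences from -0.08 to 0.18. Further probe sets were called lower in Prpf6 (-0.22) and Prpf31 (-0.32) and higher in Prpf39 (0.51). Of the 5, Prpf39 (0.18 ± 0.07) was called without empty vector array 1 (0.24, limma adjusted p = 0.0440) and without globin-labelled array 1 (0.22, limma adjusted p = 0.0392).

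**Figure D4:**
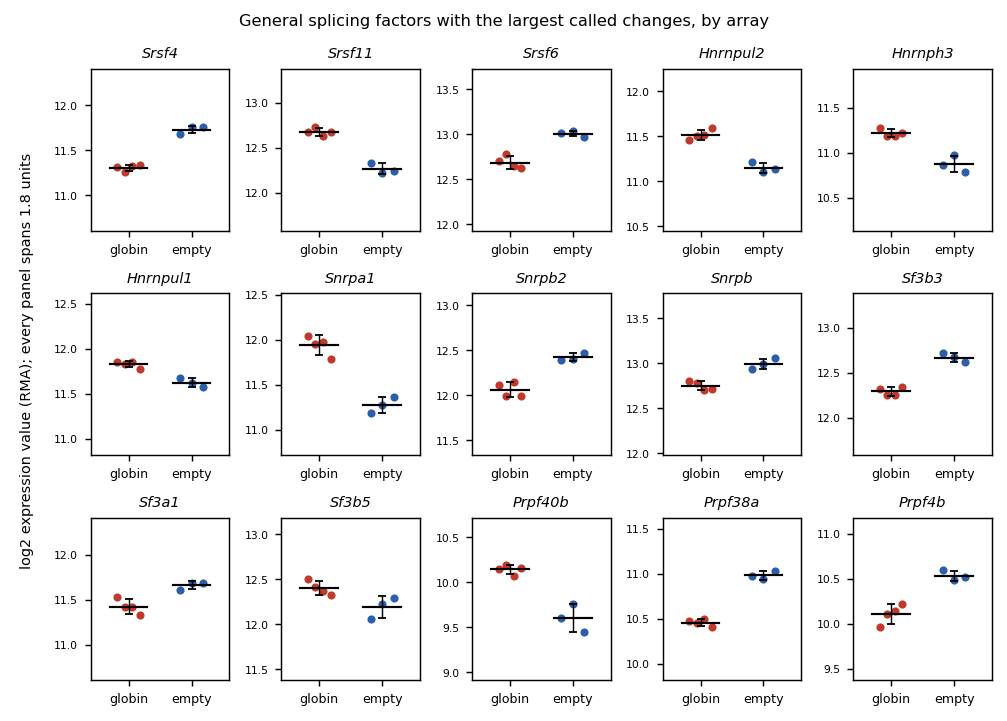
Log2 expression value in each array for the 15 general splicing factors with the largest called changes, up to 3 per family, globin-labelled arrays in red on the left and empty vector arrays in blue on the right of each panel. Black lines are means with SD (n = 4 and n = 3), and every panel spans the same height. The groups do not overlap in any panel, and for Sf3b5 the gap between them is the narrowest.

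Probe sets of a gene read different stretches of its transcripts, and for splicing factors they often gave different answers. Of the 72 genes 48 had over 1 probe set, with 110 further probe sets that were dimmer on the same arrays. These further probe sets were called at 45.5%, where 40.6% of 7987 such probe sets of all genes were. Over all 22626 probe sets 39.5% were called, 18.3% higher and 21.2% lower. Among genes higher on the brightest probe set, 15 further probe sets rose, 5 were not called and 0 fell. Among genes lower on it, 9 fell, 11 were not called and 2 rose. Of 27 genes with over 1 probe set that were not called on the brightest, 15 had a called probe set elsewhere, or 55.6%, beside 27.8% of 2725 such genes over the array. In all 49 of the 72 genes had at least 1 call (68.1%), as did 46.8% of the 12393 genes, and genes with more probe sets have more chances of a call. Called probe sets in both directions were found in Srsf2, Srsf6 and Prpf4b, or 6.25% of the 48 genes, beside 1.49% of 4956 genes over the array. The 48 genes had 3.29 probe sets each on average and the 4956 genes 2.61, and no test was made of that difference.

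For Srsf2, the SR protein also called SC35, the brightest probe set was not called (0.0048 ± 0.04), while others fell by 0.43 ± 0.09 and fell by 0.42 ± 0.06 and 1 rose by 0.16 ± 0.04. For Srsf6, the brightest fell by 0.32 ± 0.05 and another rose by 0.16 ± 0.04 (limma adjusted p = 0.00896). The rising probe set was at 12.83, 12.82, 12.80 and 12.87 in globin-labelled arrays, against 12.68, 12.69 and 12.62 in empty vector arrays, and neither probe set's groups overlapped. The remaining probe set of Srsf6 was not called. On the mean of its 3 probe sets Srsf6 differed by -0.0071 and was not called. For Prpf4b, the brightest and the next fell by 0.42 ± 0.06 and fell by 0.21 ± 0.06, and another rose by 0.57 ± 0.07 (limma adjusted p = 2.31e-04). Hnrnpa1, a founding hnRNP protein with many processed pseudogenes, differed by 0.06 ± 0.05 on its brightest probe set and rose by 0.59 ± 0.08 and 0.55 ± 0.12 on its others. Hnrnpa2b1 and Hnrnpdl were likewise not called on the brightest (-0.05 ± 0.04 and 0.11 ± 0.05) and rose by up to 0.50 ± 0.07 and 0.49 ± 0.07 elsewhere. Srsf3 had 4 of 6 probe sets lower, by 0.16 to 0.30 in size, and Srsf1 had 1 of 6 lower, while neither had one higher. Prpf31 was at 0.13 ± 0.05 and not called on its brightest probe set, and its other fell by 0.32 ± 0.04. The brightest probe sets of 6 genes carry the suffix _x_at, by which the maker marks probes that also match other sequences, among them those of Hnrnpa1, Snrpa1 and Prpf19. Signal of near-identical copies cannot be set apart on them. The brightest probe sets of 6 further genes, Sf3a2 among them, carry the suffix _s_at, and matches of their probes to other genes were not examined.

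**Figure D5:**
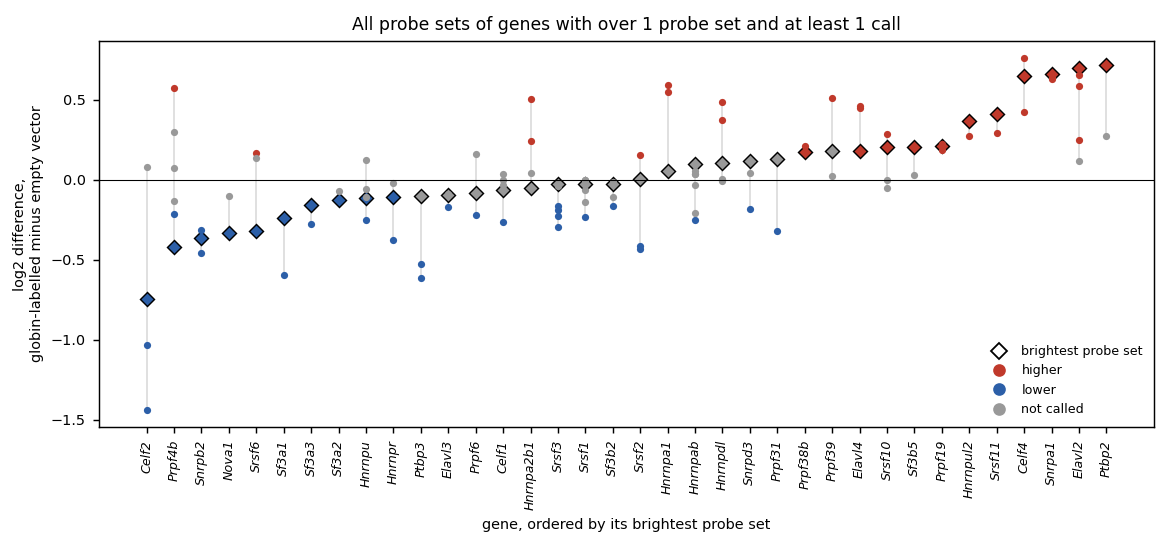
Log2 difference, globin-labelled minus empty vector, of every probe set of the 36 genes with over 1 probe set and at least 1 call. Diamonds with a black edge are the brightest probe set of each gene and circles its others, in red for higher, blue for lower and grey for not called. Srsf2, Srsf6 and Prpf4b have both red and blue points, and the points of Celf2 span the widest range.

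Differences of neighbouring genes on the chromosome were read beside the largest changes. For each gene the median difference of the 10 nearest measured genes, 5 on either side, was taken. Over 12159 genes this median ran from -0.16 at percentile 5 to 0.17 at percentile 95. For the 7 genes past 1.5-fold it was 0.15 for Rbfox3, 0.05 for Ptbp2, -0.02 for Elavl2, -0.12 for Celf4, -0.03 for Snrpa1, -0.03 for Celf2 and within 0.01 of 0 for Mbnl3. All 7 lay inside that range. Of 71 member genes with such a window 7 lay outside it. The range by definition leaves out 5% of all genes at each end. Prpf40b (0.19) and Hnrnpul2 (0.18) rose among neighbours that were also higher, and Sf3a3 (-0.18) fell among lower ones. Elavl4 (-0.28) and Prpf38b (-0.22) rose among lower neighbours, and Srsf2 (-0.35) and Hnrnpa1 (0.26) were not called. The part of the neighbourhood in these genes' differences was not tested.

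Other genes of the splicing pathway, which the naming rule does not hold, also moved both ways. Of 120 such genes 99 were measured, of which 19 rose and 26 fell, with a median difference of -0.04 over the 99. In all 45 were called (45.5%), where 40.7% of all genes were. With both arrays that stood apart left out the count was 29. Luc7l2, a U1-associated protein, had the largest rise, with 11.22, 10.98, 11.28 and 11.25 in globin-labelled arrays, against 9.85, 10.29 and 9.74 in empty vector arrays, a difference of 1.23 ± 0.13 (limma adjusted p = 6.78e-05). Pspc1, a paraspeckle protein, rose by 0.59 ± 0.05, and Esrp1, an epithelial splicing regulator, rose by 0.48 ± 0.08 from dim signal, with 7.30 in globin-labelled arrays and 6.81 in empty vector arrays. Crnkl1 and Aqr, which both join the spliceosome around its activation, fell by 0.64 ± 0.05 and fell by 0.41 ± 0.04. Khdrbs1, the signalling-linked RNA-binding protein Sam68, fell by 0.33 ± 0.05 (limma adjusted p = 5.89e-04).

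Of the 34 calls, 26 held when any single array was left out. The other 8, those of Srsf10, Hnrnpl, Hnrnpu, Hnrnpr, Sf3a2, Sf3a3, Sf3b5 and Prpf38b, were 0.21 or less in size and kept their direction. Every called gene of the neuronal families and of the Snrp genes held.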

How the data were processed

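Total RNA of 7 MN9D samples was amplified in 1 cycle and biotin-labelled for Affymetrix mouse 430A 2.0 arrays, per the labels' protocols. The authors deposited RMA values on the log2 scale, per the submitters' processing notes, with no software version given in the sources used here. RMA corrects background, equalises the arrays' distributions and combines a probe set's probes, so a shift shared by most transcripts cannot be seen. The log2 values were not transformed further, and their precision is limited by the number of arrays. Scanner files and the remaining control array of the design were not used here.

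The array has 22690 probe sets. Without 64 array controls, 22626 were fitted with limma 3.58.1 in R 4.3.3 (lmFit, eBayes, group as the only term, 5 residual degrees of freedom), two-sided, with Benjamini-Hochberg adjustment. The platform annotation gave 1 symbol for 20380 probe sets, several for 691 and none for 1555. Of the 691 with several symbols, 15 held a member's name and were left out. All 72 symbols matched the RefSeq gene table of GRCm38.p6. The members and lists were chosen with earlier results of these data known. Values are given for up to 3 called members per family with the largest change, every member of the neuronal families, the 3 largest rises and falls among other splicing genes, and the brightest marker of each list. Further members were named after their values were seen. The fit was tested on simulated data. Alternatives were array scaling, eBayes with trend and robust on, a filter on dim probe sets, the mean of a gene's probe sets, a fold minimum, a replicate block and leaving out arrays.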

Additional observations from a re-analysis of the deposited data

Results flagged for a closer look

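In the group of 4 globin-labelled arrays, 5 of 71 genes examined had 1 array far from the other 3 by Dixon's test, and chance flags about 1 in 20 such groups. Mbnl1 was highest in globin-labelled array 3, at 11.75, with 11.65 to 11.66 in the others. Srsf9 was lowest in array 4, at 11.63, with 11.74 to 11.75 in the others, and all 4 lay above the 3 empty vector arrays. Hnrnpa1 was highest in array 4, at 12.903, with 12.868 to 12.869 in the others. Pspc1 was lowest in array 4, at 9.69, with 9.83 to 9.85 in the others. Pecam1 was highest in array 1, at 6.447, with the same value of 6.441 in each of the others. The rate of 1 in 20 does not allow for values that are identical between arrays. The call of Srsf9 and that of Pspc1 held without array 4.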

How the results depend on the processing

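With 1 array left out at a time, 28 to 31 members were called in place of 34, 15 to 18 higher and 11 to 14 lower, 30 to 38 of the other splicing genes in place of 45, and 7803 to 8271 probe sets in place of 8931. Replicate numbers are shared by the groups, but same-numbered arrays did not deviate together (r = -0.36, -0.30 and -0.14), so the numbers were not taken to pair the samples. With the replicate number as a block and globin-labelled array 4 left out, 24 members were called, 14 higher and 10 lower in place of 16, and 23 other splicing genes. With a minimum fold of 1.2, the calls were 19 members, 10 higher and 9 lower, 17 other splicing genes and 5264 probe sets. With both arrays that stood apart left out, which was tried only once the values had been seen, 29 other splicing genes were called. Array scaling, eBayes with trend and robust on, and the filter on dim probe sets kept every member count within 1.5 times, with 33 to 39 members called. With the mean of a gene's probe sets in place of the brightest, 39 members were called and the members' median was -0.0074 in place of 0.012. Of the 34 calls on the brightest probe set 29 held, and those of Srsf6, Srsf10, Hnrnpu, Sf3b5 and Prpf4b were lost. The sign then turned for 8 of the 72 members, of which Prpf4b alone was called on the brightest. They were Prpf4b (0.029), Hnrnpa2b1 (0.18), Prpf31 (-0.10), Srsf2 (-0.17), Elavl1 (0.0012), Hnrnpab (-0.038), Hnrnpf (-0.013) and Snrpd3 (-0.0077), by construction, since their probe sets disagree in sign. Of these, Hnrnpa2b1, Prpf31 and Srsf2 were called on the mean, in the turned direction. In the other settings single genes were followed for 53 of the 72 members, those called or named with a value, and for the named markers and other splicing genes. Among these, the genes whose sign turned were not called. Srsf2 was at -0.0046 with the block and ran from -0.0089 to 0.032 with 1 array left out. Over the same omissions Elavl1 ran from -0.079 to 0.017, U2af2 from -0.041 to 0.0039, Pecam1 from -0.016 to 0.050, Gfap from -0.075 to 0.011 and Dcn from -0.051 to 0.028. With both arrays left out Hnrnpa1 was at -0.00046, Srsf3 at 0.0011 and U2af2 at 0.0022. With quantile normalization Pecam1 was at -0.0093.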
